A study of Rattus norvegicus with 20 samples.

Results

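Epithelial cells cultured from the dome of the rat bladder were compared by RNA sequencing before and after a stay in skin. The comparison took all samples of bladder cells in the series, 2 before transplantation and 2 recovered from the transplants, which are 4 of 20 samples. All 4 came from Sprague-Dawley rats that express enhanced green fluorescent protein (EGFP) in all cells, the green rat line CZ-004, SDTgN (act-EGFP)obsCZ-004, with tissue taken from adults at PN201 (postnatal day). The cells before transplantation (1st round) were a bulk culture on irradiated mouse 3T3-J2 fibroblasts, used as a feeder layer. The recovered cells (2nd round) descended from such cultures. They had been placed in skin of newborn OF1 mice, which was grafted onto athymic mice, and EGFP cells were later taken back from the grafts and cultured again. Both groups were sorted on EGFP before RNA was extracted. The cells are a mixture and not a clone, and nothing in the labels says that the 2 samples of a group came from separate animals, transplants or cultures. The p-values therefore measure only the spread between samples of a group, which may be technical. That spread was pooled over all 20 samples in 10 groups. The earlier bladder pair had the most genes 2-fold apart of these groups, so the pooled spread may be too small for it. Recovered cells had also been cultured again and had been selected by engraftment, and these differences cannot be told apart from the skin environment. In bulk samples, fewer cells of a type and less RNA per cell cannot be told apart either.

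The urothelium of the bladder is a transitional epithelium. Its surface cells carry uroplakins and the keratins of simple epithelia, and its basal cells express Tp63 and basal keratins. The epidermis is a stratified epithelium in which cells leaving the basal layer switch keratins, exchange their desmosomal cadherins, and assemble lipids and proteins into a cornified envelope. The question of the comparison is what bladder cells express once they have been exposed to the signals of developing skin. Gene levels are given as CPM, read counts scaled to a common library size, and differences as log2 fold changes of recovered over earlier cells. A gene was called higher or lower when limma voom gave an adjusted p under 0.05 together with a 2-fold or larger change.

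Between 22556514 and 26884170 reads per bladder sample were counted on genes, and 13302 genes were tested. Of these, 2805 (21.1%) were called, 1343 higher (10.1%) and 1462 lower (11.0%) in the recovered cells. The CPM values of the groups did not overlap for 77.7% of all genes tested, so a lack of overlap alone says little about a gene. The median log2 fold change over all genes was 0.009. At a log2 fold change of at least 5, 74 genes were higher and 68 lower. Samples before transplantation were less alike than the recovered ones, with 632 genes (4.75%) at least 2-fold apart between the 2 earlier samples and 226 (1.7%) between the 2 recovered samples. Among the 2805 called genes, 319 were at least 2-fold apart between the 2 earlier samples, and 226 of these were higher in sample 1. Names could be given to 1917 of the genes tested. The named genes came from a table of genes that differ from whisker follicle cells in these same samples, so they are a selected subset, with 21.7% called higher and 22.7% lower. Counts in gene lists are to be read against these shares.

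**Figure D1:**
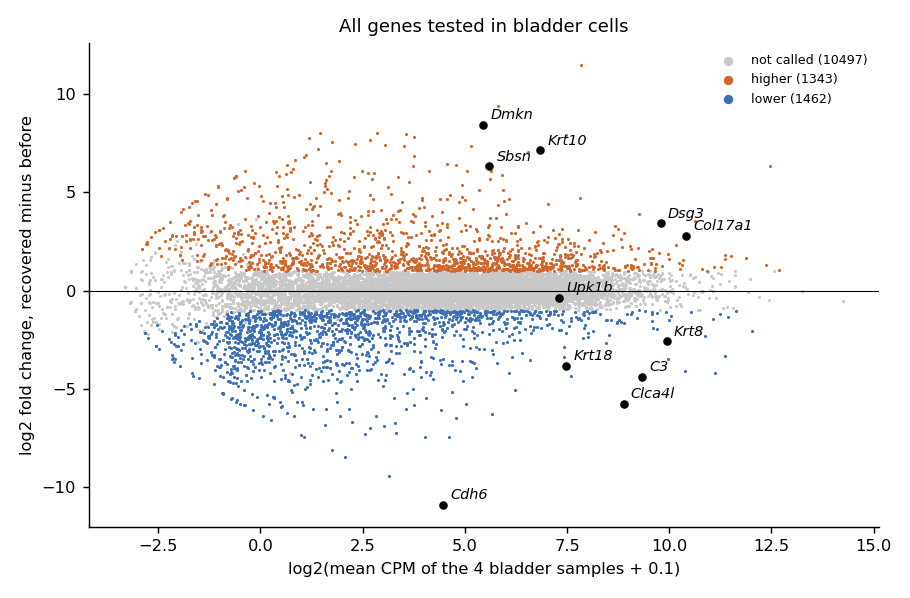
Each point is one of 13302 genes, with the log2 mean CPM of the 4 bladder samples (plus 0.1) on the x axis and the log2 fold change of recovered over earlier cells on the y axis. Orange points are the 1343 genes called higher and blue points the 1462 called lower. Dmkn, Krt10 and Sbsn lie far above 0 and Clca4l, C3, Krt18 and Krt8 below it, while Upk1b lies near 0. The fitted value of Cdh6 depends on the prior count, since it had no read after recovery.

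Named genes of epidermal differentiation rose almost as a group. The list held 36 symbols, and only the 24 with a name at hand were tested. Names came from genes that differ from whisker cells, so the 24 are not an unselected part of the list. Of 24 tested members of the list for epidermal differentiation and the cornified envelope, 22 were called higher and 1 lower, with a median log2 fold change of 3.31. The summed level of the list was 736 and 785 CPM before transplantation and 2162 and 2007 CPM in the recovered cells. Krt10, the keratin of suprabasal epidermis, was at 1.57 and 1.64 CPM before transplantation and at 235 and 223 CPM after recovery. This was a log2 fold change of 7.14 (SE 0.30, adjusted p = 1.27e-11), or 141-fold. Dmkn, which encodes the secreted epidermal protein dermokine, was at 0.299 and 0.172 CPM before and at 91.3 and 83.2 CPM after. Its log2 fold change of 8.44 (SE 0.55, adjusted p = 2.02e-09) was the largest among named genes that reached 10 CPM in each recovered sample. Sbsn, encoding suprabasin of the same layers, was at 0.859 and 1.64 CPM before and at 104 and 87.2 CPM after. For each of these genes both recovered samples lay far above both earlier samples, and the earlier samples held only a trace.

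The upstream sequences of Dmkn and Krt10 are shown because these genes had the largest rises on that list. Each is the 250 bases before the start of the gene, 5′ to 3′, from RefSeq on GRCr8, a later assembly than the one the reads were counted on. Dmkn is at chr1:95141370-95141619 on the + strand and Krt10 at chr10:84839161-84839410 on the - strand. Capitals mark motifs found on either strand, which did not overlap. The motif in the Dmkn window is TGANTCA, the core of an AP-1 site. The motif in the Krt10 window is TATAAA, a core promoter element.
Dmkn: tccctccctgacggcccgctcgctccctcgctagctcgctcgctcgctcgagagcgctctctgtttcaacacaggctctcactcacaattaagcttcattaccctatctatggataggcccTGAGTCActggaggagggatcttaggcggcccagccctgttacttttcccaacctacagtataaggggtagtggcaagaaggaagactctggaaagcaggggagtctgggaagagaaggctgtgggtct
Krt10: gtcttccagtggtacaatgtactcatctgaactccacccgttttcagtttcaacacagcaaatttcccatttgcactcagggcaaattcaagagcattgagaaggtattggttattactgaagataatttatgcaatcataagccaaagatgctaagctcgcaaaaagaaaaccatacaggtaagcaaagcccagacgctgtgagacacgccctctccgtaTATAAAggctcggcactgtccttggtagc
TGANTCA was in 6.36% and TATAAA in 13.1% of 27457 promoter windows of this length. Of the 22 list members called higher, 18 had a window, of which 2 held TGANTCA (Crnn and Dmkn) and 2 held TATAAA (Dapl1 and Krt10). In the order of protein-coding genes on that assembly, only Gapdhs lies between Sbsn and Dmkn.

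Other members of the list covered the envelope, its lipids and its enzymes. Cnfn, encoding the envelope protein cornifelin, rose from 1.04 and 5.39 CPM to 81.8 and 75.1 CPM. Calml5, a calmodulin-like protein of keratinocytes, rose from 0.0747 and 0.259 CPM to 11.5 and 10.3 CPM. Among the lipid genes, Abca12, the lipid transporter of lamellar granules, rose from 0.784 and 0.302 CPM to 26.3 and 21.5 CPM. Elovl4 and Cers3, which make the very long-chain ceramides of the skin barrier, rose by log2 3.70 and 2.65. Klk7, a protease of desquamation, rose by log2 4.79, and Casp14, the caspase of cornification, by log2 1.97, from 2.65 and 1.68 CPM to 8.47 and 8.39 CPM. Padi1, a peptidylarginine deiminase, was the exception, falling from 476 and 427 CPM to 112 and 100 CPM (log2 fold change -2.09). Alox12b was at 0 reads in both earlier samples and under 3 reads' worth of CPM in the recovered ones, and was not called. Left out for that reason, the list's median becomes 3.70.

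**Figure D2:**
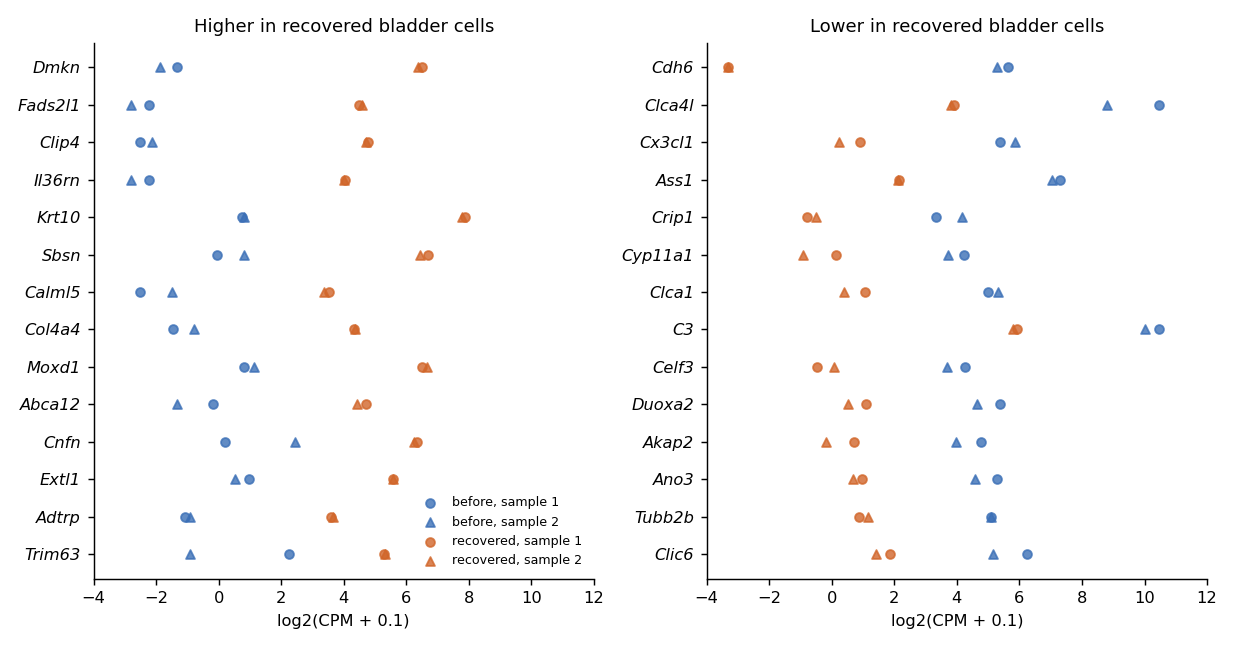
Levels of the 14 genes with the largest rise and the 14 with the largest fall among called, named genes that reached 10 CPM in each sample of the group where they are higher. The x axis is log2(CPM + 0.1), and each row has 4 points, circles for sample 1 and triangles for sample 2, blue before transplantation and orange after recovery. The 2 groups are separate in all 28 genes, which largely follows from picking them for large called changes. Clca4l, Cnfn and Trim63 show the widest gaps between the earlier samples.

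Most tested genes of desmosomes and basal attachment were higher, but not all. Of 8 tested members of the list for keratins, desmosomes and adhesion, 5 were called higher and none lower. Krt4 was the only keratin among the 8, so no basal keratin is covered by this count. Dsg3, the desmosomal cadherin of basal keratinocytes, rose from 143 and 160 CPM to 1647 and 1591 CPM (log2 fold change 3.42, SE 0.10, adjusted p = 2.62e-13). Its partner Dsc3 rose from 89.7 and 106 CPM to 696 and 674 CPM. Dsc2, another desmosomal cadherin, was at 863 and 540 CPM before and at 672 and 685 CPM after, between the earlier samples, and was not called (adjusted p = 0.969). Dsg1, the desmoglein of upper epidermal layers, had 4 reads in the 2 earlier samples together and 277 in the recovered ones, a ratio of 78.3 (95% counting interval 30.2 to 289). Col17a1, the hemidesmosomal collagen, rose from 236 and 483 CPM to 2323 and 2374 CPM, and Dsp, which anchors keratins to desmosomes, from 1319 and 1639 CPM to 3600 and 3215 CPM. Krt4, a keratin of mucosal stratified epithelia and not of epidermis, also rose, from 16.2 and 69.6 CPM to 302 and 272 CPM, with the earlier samples far apart from each other. Cdh1 and Epcam, adhesion molecules of epithelial cells in general, stayed under the 2-fold limit. Cdh1 was at 2420.0 and 2125 CPM before and at 1772 and 1709 CPM after, and Epcam at 519 and 491 CPM before and at 338 and 352 CPM after.

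Urothelial genes did not move as one group. The list held 30 symbols, and only the 16 with a name at hand were tested. Upk1a, Upk2 and Upk3a were not among them. Of the 16 tested members, 5 were called lower and none higher, with a median log2 fold change of -0.73. The 5 were the simple-epithelial keratins Krt8, Krt18 and Krt19, the tight junction gene Cldn7 and Vgll1, a cofactor of TEAD transcription factors. Krt19 went from 857 and 987 CPM to 469 and 413 CPM, and its log2 fold change of -1.06 was -0.97 without sample 2 of the earlier cells and -0.98 without sample 2 of the recovered cells, where it was not called. Krt18 fell from 379 and 290 CPM to 24.1 and 22.3 CPM (log2 fold change -3.83, SE 0.13, adjusted p = 1.42e-12), 14.3-fold lower. Krt8, its partner in the same filaments, fell from 1656 and 1700 CPM to 276 and 281 CPM, 6.03-fold lower. Cldn7 fell from 60.2 and 67.3 CPM to 5.52 and 5.04 CPM, whereas Cldn4 was at 1322 and 1104 CPM before and 1973 and 1946 CPM after.

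Other members of the urothelial list kept their level within 2-fold. Upk1b, a uroplakin of the urothelial plaque, was at 167 and 191 CPM before and at 142 and 134 CPM after (log2 fold change -0.37, SE 0.10, adjusted p = 0.00564). The groups did not overlap, yet the difference was small. Upk1b was not confined to bladder cultures. Before transplantation its mean was 179 CPM in bladder, and 131, 38.0 and 144 CPM in trachea, vagina and thymus. Foxa1, a transcription factor of urothelial differentiation, was at 128 and 74.3 CPM before and at 51.0 and 52.5 CPM after (log2 fold change -0.92). Without sample 2 of the earlier cells its log2 fold change was -1.31 and it was called. Psca, a surface antigen of urothelium, was at 26.0 and 57.1 CPM before and at 26.0 and 22.3 CPM after, where 1 earlier sample lay among the recovered ones. Without sample 1 of the earlier cells its log2 fold change was -1.25, it was called, and 8 members of the list were called lower in place of 5. Elf3 and Ehf, epithelial ETS factors, were at 548 and 448 CPM and at 378 and 272 CPM before, and at 755 and 717 CPM and at 366 and 356 CPM after.

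**Figure D3:**
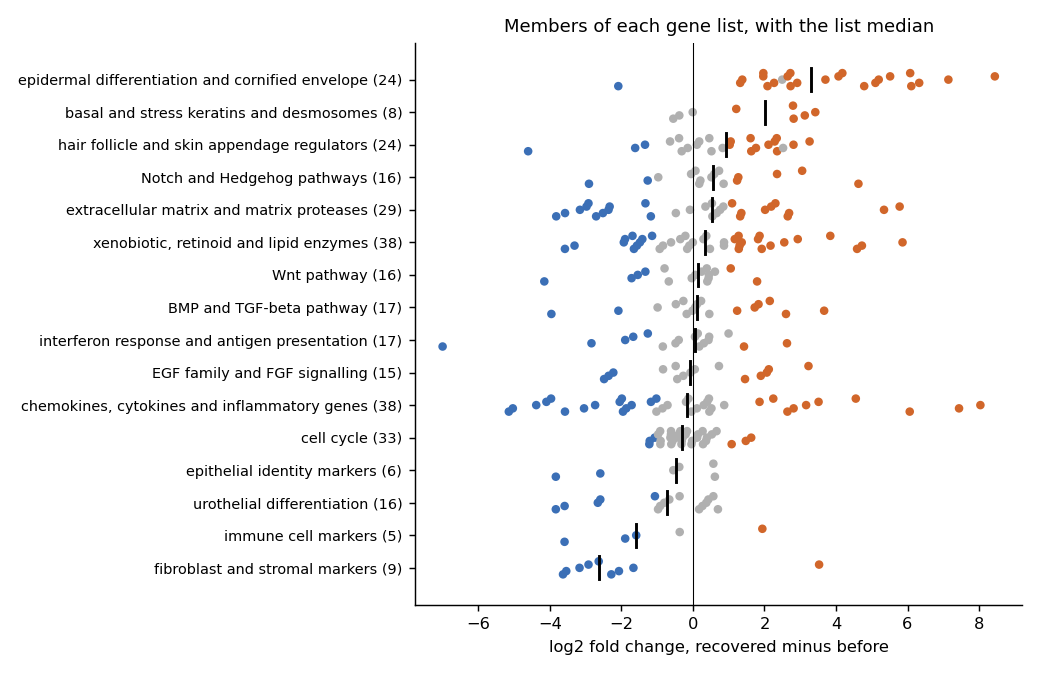
Log2 fold changes of recovered over earlier cells for the tested members of each list with at least 5 members, with the number tested in brackets. Orange points were called higher, blue points lower and grey points neither, and the black bar is the list's median. The epidermal list has its median at 3.31 and the fibroblast list at -2.64, while most signalling lists have medians near 0 with members on both sides.

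The list for regulators of hair follicles and skin appendages showed a mixed picture among the members that could be named. It held 49 symbols, and only the 24 with a name at hand were tested. Lhx2, Gata3, Foxn1, Hr and Lef1, which the study measured by RT-qPCR in recovered cells, were not among them. Of the 24 tested, 11 were called higher and 3 lower, with a median log2 fold change of 0.93. The median was 1.03 without 3 members (Tfap2b, Dlx6 and Sdr16c6) that had no read in a group and a mean under the floor of 3 counts in 1 library in the other. Of these, Sdr16c6 is among the 11 called higher, on 0 reads before and 3 and 1 after. Not every member is a regulator. By their symbols Sdr16c6 is an enzyme gene and Krtap3-2, also called higher, encodes a keratin-associated protein. In the ectodysplasin pathway, which starts hair placodes, 3 of 4 tested members of the list rose. The ligand gene Eda went from 2.84 and 2.5 CPM to 8.24 and 8.18 CPM, the receptor gene Edar from 1.08 and 0.560 CPM to 4.71 and 3.62 CPM, and the adaptor gene Edaradd from 10.2 and 10.5 CPM to 49.5 and 51.2 CPM. Eda2r, a further receptor gene, was at 17.1 and 7.33 CPM before and at 11.5 and 9.38 CPM after, and was not called (adjusted p = 0.745). Among homeobox genes, Dlx3, which acts in the hair follicle and epidermis, rose from 0.261 and 0.345 CPM to 3.05 and 3.01 CPM, and its neighbour Dlx4 from 0.187 and 0.259 CPM to 1.62 and 1.68 CPM. Barx2 rose from 12.5 and 17.5 CPM to 61.1 and 66.2 CPM, and Bcl11b, a zinc finger factor of epidermis, from 25.7 and 31.4 CPM to 85.6 and 89.7 CPM. Cd34, a surface protein of bulge cells in mouse hair follicles, fell from 0.784 and 1.90 CPM to 0.0952 and 0 CPM. Tfap2b had 1 read in 1 earlier sample and none in the other 3. Lgr4 was at 25.2 and 21.8 CPM before and 25.5 and 25.3 CPM after. The DESeq2 Wald test called 7 members of the list higher in place of 11.

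Developmental signalling was described by ligand, receptor and target, and again only list members with a name at hand were tested. Among all named genes 21.7% were called higher and 22.7% lower, and the counts of these lists are to be read beside that. The Wnt list held 50 symbols, and Lef1, Wnt3a, Wnt5a, Wnt10a and Dkk1 were not among the 16 tested. Of these 16 Wnt pathway genes, 2 were called higher and 4 lower (median 0.15). Wnt3, a ligand, rose from 3 reads in both earlier samples together to 11 reads in the recovered ones, a ratio of 4.14 (95% counting interval 1.09 to 23.1). This call was lost with DESeq2 and without any one of the 4 samples, with adjusted p between 0.0626 and 0.126. Ror2, a receptor, fell from 0.672 and 0.388 CPM to 0.0952 and 0.258 CPM. Apcdd1, an inhibitor, fell from 1.12 and 0.647 CPM to 0.0952 and 0 CPM. Dkk3, a secreted member of the Dickkopf family, fell from 6.72 and 3.15 CPM to 1.62 and 2.11 CPM, and its log2 fold change of -1.33 was -0.75 without sample 1 of the earlier cells, where it was not called. Ctnnb1, encoding beta-catenin, was at 1649 and 1401 CPM before and at 945 and 957 CPM after.

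Of 17 BMP and TGF-beta genes, 6 were called higher and 2 lower (median 0.11). Among ligands, Bmp6 rose from 1.04 and 1.38 CPM to 15.9 and 14.9 CPM and Bmp3 from 60.0 and 51.0 CPM to 184 and 182 CPM. Inhba, the subunit of activin A, fell from 20.8 and 26.5 CPM to 2.00 and 1.12 CPM. Bmp2 was at 13.6 and 15.2 CPM before and 18.8 and 20.6 CPM after, and was not called. Tgfbi, a matrix protein induced by TGF-beta, rose from 8.51 and 15.8 CPM to 66.6 and 72.2 CPM.

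Among 16 Notch and Hedgehog genes, 5 were called higher and 2 lower (median 0.56). Dll1, which encodes a Notch ligand, rose from 3.14 and 6.38 CPM to 36.9 and 36.0 CPM (log2 fold change 3.05, SE 0.19, adjusted p = 1.11e-09). Dlk1 and Dlk2, paralogous proteins related to Notch ligands, moved in opposite directions. Dlk2 rose from 1.64 and 3.88 CPM to 59.3 and 63.1 CPM and Dlk1 fell from 2.46 and 5.39 CPM to 0.333 and 0.603 CPM. Boc, a Hedgehog co-receptor, rose by log2 1.27, while the ligand gene Dhh fell by 1.27 on the log2 scale. Gli1, a target of the pathway, rose but lay at 0.714 and 0.603 CPM in the recovered cells.

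EGF family ligands did not move together. Of 15 genes of EGF and FGF signalling, 5 were called higher and 3 lower (median -0.07). Ereg, encoding epiregulin, rose from 16.9 and 13.4 CPM to 141 and 143 CPM, and Epgn, encoding epigen, from 68.1 and 47.8 CPM to 228 and 252 CPM. Btc, encoding betacellulin, fell from 6.05 and 3.75 CPM to 0.952 and 1.08 CPM. Areg, encoding amphiregulin, was at 327 and 159 CPM before and at 216 and 218 CPM after, between the earlier samples. Immediate early targets Egr1 and Egr3 rose, and Etv5 and Dusp4, targets of FGF and ERK signalling, fell by 2.36 and 2.48 on the log2 scale. Egr1 was at 75.2 and 206 CPM before, so that the earlier samples were far apart, and at 462 CPM in both recovered samples.

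Inflammatory genes changed in both directions, with C3, Cxcl6 and Cx3cl1 among those that were lower. Of 38 chemokine, cytokine and inflammatory genes tested, 15 were called lower and 10 higher, with a median log2 fold change of -0.16, or -0.13 with 3 genes at 0 reads in a group set to their bounds and 1 under the floor left out. Cxcl6, a neutrophil chemokine, fell from 3228 and 1851 CPM to 139 and 146 CPM. C3, the central complement component, fell from 1426 and 1036 CPM to 60.9 and 55.7 CPM (log2 fold change -4.38, SE 0.12, adjusted p = 1.66e-13). Cx3cl1, the chemokine fractalkine, fell from 41.6 and 58.5 CPM to 1.76 and 1.08 CPM. Other neutrophil chemokines were not called, Cxcl1 at 289 and 360 CPM before and 274 and 290 CPM after, and Cxcl2 at 159 and 104 CPM before and 138 and 139 CPM after.

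Those that rose included antimicrobial and interleukin-1 family genes. Il36rn, the antagonist of the interleukin-36 receptor, had 4 reads in the 2 earlier samples together and 714 in the recovered ones, a ratio of 202 (95% counting interval 78.4 to 742). Defb14, a beta-defensin, had no read in the earlier samples and 5.33 and 5.17 CPM after recovery, at least 40.6-fold higher with 3 counts in 1 library taken as the floor. Casp1, the interleukin-1 converting enzyme, rose from 3.62 and 3.23 CPM to 24.8 and 23.8 CPM, and Il1r2, a decoy receptor, from 1.16 and 0.905 CPM to 6.57 and 6.50 CPM. Of 17 interferon response and antigen presentation genes, 2 were called higher and 5 lower (median 0.06). Cxcl10, an interferon-induced chemokine, rose from 70.8 and 35.9 CPM to 299 and 330 CPM, but Gbp5 and Cmpk2, also interferon-induced, fell from 35.1 and 15.04 CPM to 8.09 and 6.67 CPM and from 25.6 and 12.1 CPM to 2.62 and 2.37 CPM. Isg15 was at 4.37 and 2.85 CPM before and 2.86 and 2.28 CPM after, with overlapping groups.

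Matrix genes split, and fibroblast markers fell at the same time. Of 29 extracellular matrix and protease genes, 10 were called higher and 11 lower (median 0.53). Col4a1 and Col4a2, the common chains of basement membrane collagen, fell from 74.1 and 69.4 CPM to 8.33 and 9.86 CPM and from 35.8 and 31.3 CPM to 5.57 and 4.74 CPM. The chains made in specialised basement membranes moved the other way. Col4a4 rose from 0.261 and 0.474 CPM to 19.8 and 20.5 CPM (log2 fold change 5.78, SE 0.39, adjusted p = 3.17e-09) and Col4a3 from 0.261 and 0.0431 CPM to 6.05 and 5.21 CPM (log2 fold change 5.34). Col7a1, the anchoring fibril collagen of skin, rose from 180 and 257 CPM to 1046 and 921 CPM. Of 9 fibroblast and stromal markers, 8 were called lower and 1, Aspn, higher from a trace. Their summed level was 401 and 296 CPM before and 46.4 and 42.8 CPM after, with Col1a1 at 176 and 127 CPM before and 17.8 and 15.5 CPM after. Trachea cells showed much the same, with a sum of 391.8 and 395.4 CPM before and 69.8 and 57.2 CPM after, and 8 of the 9 markers called lower. The same sum in vagina, thymus and whisker samples was between 29.9 and 72.5 CPM. The whisker samples were clones from tissue taken at PN57, unlike the bulk bladder cultures. The feeder layer was of mouse fibroblasts and the samples were sorted on EGFP, and the part of fibroblast RNA in the fall of Col4a1, Col4a2 and the other matrix genes was not tested.

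Col4a3 and Col4a4 are also shown by sequence, because they rose together and are read in opposite directions from starts 412 bases apart on GRCr8. The 250 bases before each start, at chr9:91323740-91323989 on the + strand and chr9:91323578-91323827 on the - strand, share 88 bases. Neither window held TGANTCA or TATAAA, so no base is in capitals.
Col4a3: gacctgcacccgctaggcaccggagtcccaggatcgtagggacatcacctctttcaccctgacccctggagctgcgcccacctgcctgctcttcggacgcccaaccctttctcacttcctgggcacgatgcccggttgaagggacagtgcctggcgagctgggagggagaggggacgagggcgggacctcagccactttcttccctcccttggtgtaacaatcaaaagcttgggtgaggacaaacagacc
Col4a4: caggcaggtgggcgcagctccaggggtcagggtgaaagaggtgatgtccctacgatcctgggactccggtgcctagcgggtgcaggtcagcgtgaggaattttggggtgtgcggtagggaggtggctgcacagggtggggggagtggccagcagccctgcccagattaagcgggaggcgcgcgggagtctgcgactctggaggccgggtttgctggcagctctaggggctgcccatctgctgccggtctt

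Several genes outside these lists were among the largest named falls. Cdh6, encoding a type II cadherin, was at 49.3 and 38.9 CPM before transplantation and had no read in either recovered sample, at least 309-fold lower with 3 counts in 1 library as the floor. Clca4l, which by its symbol belongs to the calcium-activated chloride channel regulators, fell from 1415 and 441 CPM to 14.95 and 13.99 CPM, and Clca1 of the same family from 31.9 and 39.4 CPM to 2.00 and 1.20 CPM. Ass1, the argininosuccinate synthase of arginine synthesis, fell from 159 and 133 CPM to 4.38 and 4.26 CPM (log2 fold change -5.07, SE 0.15, adjusted p = 3.98e-13). Duoxa2, the maturation factor of the hydrogen peroxide producing oxidase DUOX2, fell from 41.8 and 24.9 CPM to 2.05 and 1.33 CPM. Among the rises, Fads2l1, named as like a fatty acid desaturase, had 4 reads before and 1031 after, a ratio of 291 (95% counting interval 113 to 1070). Moxd1, a monooxygenase, rose from 1.64 and 2.11 CPM to 91.5 and 102 CPM, and Trim63, a muscle ubiquitin ligase, from 4.63 and 0.431 CPM to 39.1 and 39.7 CPM.

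Enzymes of retinoid, lipid and xenobiotic metabolism changed in both directions. Of 38 tested, 15 were called higher and 10 lower (median 0.33). In retinoid metabolism, Aldh1a3, which makes retinoic acid, fell from 5530.0 and 4074 CPM to 494.5 and 461.5 CPM, while Cyp26b1, which degrades it, rose from 20.6 and 24.9 CPM to 105 and 98.4 CPM. Dhrs3, which reduces retinal, rose from 56.9 and 44.4 CPM to 193 and 190 CPM, and Dhrs9, which oxidises retinol, fell from 109 and 82.7 CPM to 29.9 and 29.0 CPM. Crabp2, the retinoic acid binding protein, was at 263 and 268 CPM before and 334 and 318 CPM after. Adh7, an alcohol dehydrogenase of epithelia, rose from 0.224 and 0.345 CPM to 6.76 and 7.40 CPM.

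Few cell cycle genes were called. Of 33 tested, 3 were called higher and 3 lower, with a median log2 fold change of -0.31. The inhibitor gene Cdkn1b rose from 43.4 and 41.5 CPM to 128 and 135 CPM, and Cdkn2b, also an inhibitor, fell from 408 and 257 CPM to 141 and 137.2 CPM. Its log2 fold change of -1.22 was -0.89 without sample 1 of the earlier cells, where it was under the 2-fold limit and not called. Mitotic genes lay apart between the 2 earlier samples. Cenpf was at 33.5 and 73.8 CPM before and 35.1 and 29.6 CPM after, and Cdc20 at 26.8 and 55.6 CPM before and 36.2 and 39.0 CPM after. Ccnd1 was at 1513 and 1181 CPM before and 1059 and 1091 CPM after.

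The change in bladder cells was set against the change in the other tissues without hair, each with 2 samples before and 2 after. Trachea, vagina and thymus samples were cultured, transplanted and recovered in the same way from EGFP rats, trachea and vagina at PN200 and thymus at PN137 from a frozen stock. By an interaction test, the change differed from that in trachea for 1673 genes (12.6%, 7.67% higher in bladder and 4.91% lower). It differed from that in vagina for 3378 (25.4%, 13.8% higher and 11.6% lower) and from that in thymus for 3096 (23.3%, 11.4% higher and 11.8% lower). These tests share the bladder samples. Eif2s3y, a gene of the Y chromosome, had reads in bladder cells and next to none in those tissues. Donor sex therefore cannot be told apart from tissue here. Of genes called higher in bladder, 337 (25.1%) were also called higher in trachea, which is 57.7% of the 584 genes that rose there, and 4.39% of all genes rose in trachea. Of genes called lower in bladder, 637 (43.6%) were also called lower in trachea, or 59.6% of its 1069, and 8.04% of all genes fell in trachea. Of genes called higher in bladder, 151 (11.2%) were called higher in vagina, where 4.25% of all genes rose, and 200 lower. Of those called lower in bladder, 305 (20.9%) were called lower in vagina, where 7.53% of all genes fell, and 97 higher. In thymus, 363 (27.0%) of the genes called higher in bladder were called higher against 8.49% of all genes, and 104 lower. Of those called lower in bladder, 325 (22.2%) were called lower in thymus against 6.89% of all genes, and 207 higher.

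The change differed from all 3 tissues in 1 direction, and was called in bladder, for 623 genes (4.68%), 393 higher (2.95%) and 230 lower (1.73%). The epidermal list gave 11 of the 393 genes. Its members come from the named genes, of which 21.7% were called higher in bladder against 10.1% of all genes. The share of named genes that differed from all 3 tissues was not taken, so this count has no matching background. In trachea 11, in vagina 11 and in thymus 15 of the list's 24 members were called higher, with medians of 0.63, 0.85 and 1.49 against 3.31 in bladder. The Dmkn change in bladder exceeded that in trachea by log2 5.66 (SE 0.74, adjusted p = 2.4e-05), and by more in vagina and thymus. Col4a4 rose in bladder, had a log2 fold change of -0.35 in trachea, and fell by 8.84 and 4.20 on the log2 scale in vagina and thymus. Dlk2 rose by log2 4.63 in bladder, with changes of 0.61, 0.23 and 0.49 in trachea, vagina and thymus. Its mean before transplantation was 2.76 CPM in bladder, and 13.8, 43.1 and 60.1 CPM in those tissues. In recovered cells it was 61.2 CPM in bladder, and 20.9, 50.7 and 84.0 CPM there. Clip4 and Fads2l1 rose in bladder beyond their change elsewhere by at least log2 5.13 and 4.05.

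Among genes that fell, Ass1 changed by log2 -1.65 in trachea, 1.49 in vagina and -0.13 in thymus, against -5.07 in bladder. Creb3l1, a transcription factor of the secretory pathway, fell from 32.3 and 24.3 CPM to 4.19 and 3.75 CPM in bladder. Its log2 fold change in the other 3 tissues was between -0.002 and 1.06. Mean Creb3l1 in recovered trachea, vagina and thymus cells was 4.22, 9.89 and 3.29 CPM, so that bladder fell to a level within their range. Crip1 fell from 10.0 and 17.7 CPM to 0.476 and 0.603 CPM. Crip1 and Cdh6 were close to absent in vagina and thymus at both times, so that their differences from these tissues rest on few reads. Krt8 fell in all 4 tissues, and no difference between its change in bladder and that in trachea was called (difference -0.42, SE 0.16, adjusted p = 0.0615), nor for thymus (difference 0.04, SE 0.17, adjusted p = 0.879). Krt18 fell in bladder, trachea and vagina and rose in thymus by log2 1.20. Upk1b, which stayed within 2-fold in bladder, fell by 2.58 and 6.34 on the log2 scale in trachea and vagina, and the difference from bladder was 2.20 (SE 0.16, adjusted p = 6.34e-08) and 5.97 (SE 0.44, adjusted p = 1.64e-08). In thymus Upk1b also stayed within 2-fold, with a log2 fold change of -0.95, and its difference from bladder of 0.58 (SE 0.15, adjusted p = 0.00441) was under the 2-fold limit.

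**Figure D4:**
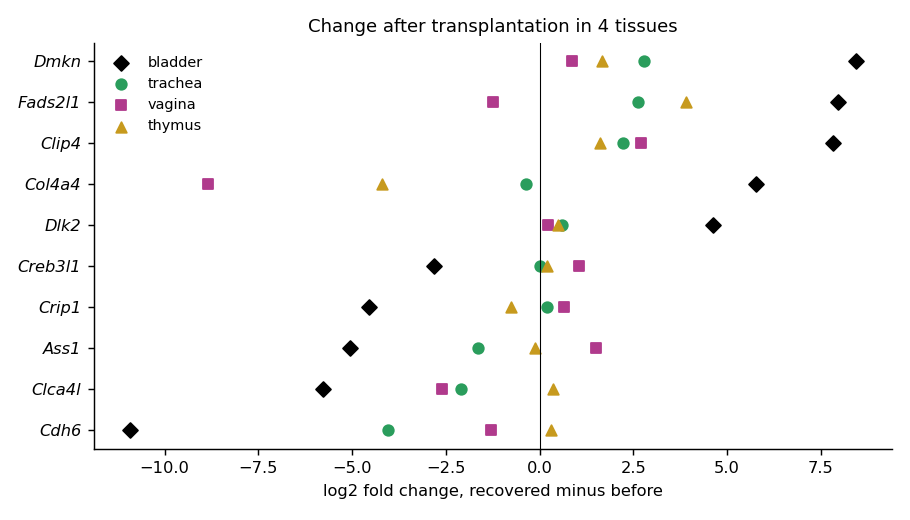
Log2 fold change of recovered over earlier cells in bladder (black diamonds), trachea (green circles), vagina (purple squares) and thymus (yellow triangles) for the 5 genes higher and 5 lower in bladder whose change lay farthest from that of the nearest other tissue. The bladder value lies outside the range of the other 3 in every row, as the choice of these genes requires. The value of Cdh6 is fitted from no read after recovery.

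**Figure D5:**
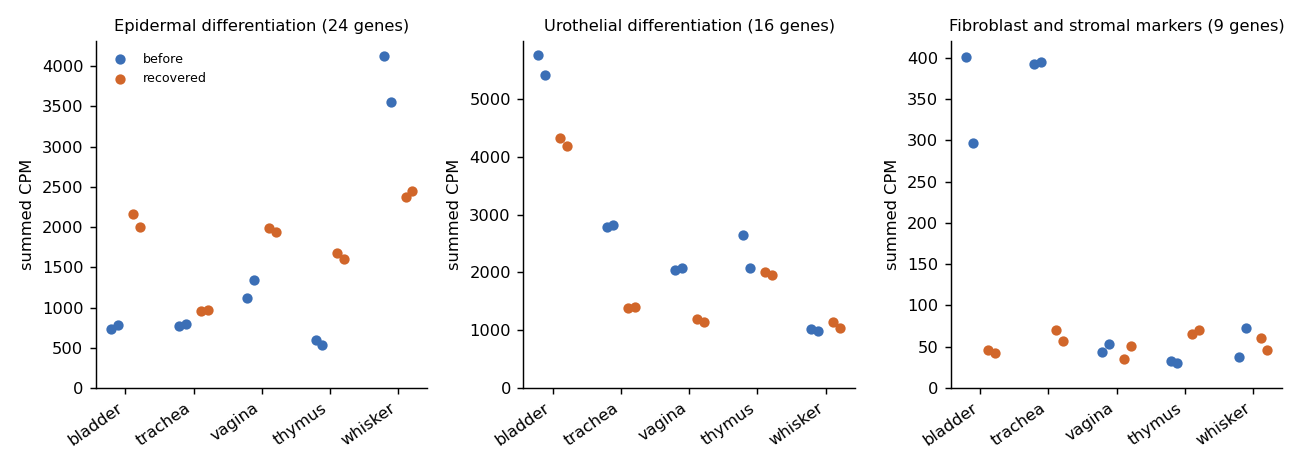
Summed CPM of 3 lists in each of the 20 samples, blue before transplantation and orange after recovery, by tissue. The epidermal sum in recovered bladder cells, 2162 and 2007 CPM, lies near that of recovered vagina cells and below recovered whisker follicle cells at 2379 and 2455 CPM. Whisker cells, which were clones, were at 4129 and 3560 CPM before transplantation. Members differ within the sum. Mean Evpl was 865 CPM in recovered bladder and 600 CPM in recovered whisker cells, and mean Krt10 was 229 and 869 CPM. The urothelial sum is highest in bladder cells at both times. In recovered bladder cells it was 4322 and 4185 CPM, of which Cldn4 alone gave 1973 and 1946 CPM. The fibroblast sum is high only before transplantation in bladder and trachea.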

How the data were processed

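RNA of EGFP-sorted cultured cells was sequenced from poly(A) libraries of a stranded kit. The authors trimmed reads with Cutadapt 1.8, removed reads matching unwanted sequences, aligned the rest with STAR 2.5.2b to the rat genome Rnor_6.0 and counted them per Ensembl gene with HTSeq 0.6.1. The strand setting of the counting is not given in the sources used here. They deposited raw read counts of each sample, with 32494 genes in each table and 5 summary lines that name no gene. In the bladder samples, no_feature was 10.2% to 11.9% and non-unique alignments 29.6% to 32.3% of the reads in the table. These lines were left out, and genes with near-identical copies may be undercounted.

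Libraries were scaled by TMM (edgeR 4.0.16). The test was voom of limma 3.58.1, run under R 4.3.3 on every gene that reached 1 CPM in 1 or more samples. The model had a mean for each of 10 groups over all 20 samples (10 residual degrees of freedom). Each contrast had its own Benjamini-Hochberg adjustment. Interaction contrasts compared the change in bladder with that in trachea, vagina and thymus. For genes at 0 reads in a group, 3 counts in 1 library were taken as the floor, and ratios from few reads carry an exact binomial 95% interval, which covers counting error only. Neither pair of bladder samples was a single deposited library, since their counts differed by more than sampling noise (mean chi-square per gene 35.1 and 4.59). Scripts were tested on simulated data.

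Genes were named from identifier and symbol columns of the study's supplementary tables, of which 2311 pairs were at hand. Genes without a pair, Tp63 among them, are not analysed here by name. The rule for named genes took the 14 highest and 14 lowest called genes (with 10 CPM in each sample of the higher group). It added up to 5 called members per list (with 1 CPM), 10 genes chosen by name (Foxa1, Krt8, Krt18, Krt4, Upk1b, Psca, Wnt3, Dkk3, Tfap2b and Tp63), and the 5 highest and 5 lowest genes that differed from every other tissue without hair. Other list members are named outside this rule, after their values were seen, to describe their group. The members, gene lists and tests were chosen with earlier results of these data known. Alternatives were edgeR's quasi-likelihood test, DESeq2 1.42.0, its size factors, other low-count filters, a log2 fold change of at least 2, a fit of the 4 bladder samples, a replicate block, and leaving out each bladder sample.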

Additional observations from a re-analysis of the deposited data

Results flagged for a closer look

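The change after transplantation differed between bladder and other tissues by the interaction test in limma voom, with 2 samples in each group. It was higher in bladder than in trachea for 1020 genes and lower for 653, higher than in vagina for 1837 and lower for 1541, and higher than in thymus for 1522 and lower for 1574. For 393 genes it was higher and for 230 lower than in all 3 of these tissues. The 3 contrasts share the bladder samples.

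Of the genes named for this difference, Col4a4 and Dmkn rose in bladder beyond their change in trachea by log2 6.13 and 5.66. Clip4 exceeded its change in vagina by 5.13, Fads2l1 its change in thymus by 4.05 and Dlk2 its change in trachea by 4.02. In the other direction, the smallest difference was -6.87 for Cdh6 (from trachea), -3.79 for Crip1 (from thymus) and -3.42 for Ass1 (from trachea). It was -3.17 for Clca4l (from vagina) and -2.82 for Creb3l1 (from trachea). Each gene is given by its difference from the tissue nearest to bladder, which is a difference in change and not in the level reached. The cause of these differences was not tested.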

How the results depend on the processing

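No called gene changed sign under any alternative. Between 86.6% and 99.6% of the 2805 calls were kept, apart from the log2 fold change limit of 2, which kept 44.0%. At that limit 514 genes were higher and 719 lower. Against trachea 487 were higher and 282 lower, against vagina 843 and 679, against thymus 612 and 861, and against all 3 tissues 140 and 101. Among lists, 6 genes of the hair follicle list were then higher, 9 inflammatory genes lower, and 7 metabolic enzymes higher and 2 lower. The share of higher genes among calls was 47.9%, and 41.7% with no low-count filter. The hair follicle list had 7 genes higher with DESeq2. Leaving out 1 bladder sample gave between 4 and 8 urothelial genes lower, with 8 without sample 1 before transplantation. With prior counts of 0.5 and 5, 411 and 66 genes were 2-fold apart between the recovered samples.

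The replicate numbers are only a shared number, since deviations of same-numbered bladder samples had a correlation of 0.0443 over genes. A replicate block over 20 samples gave 1345 genes higher and 1470 lower, and in the fit of 4 samples 1190 and 1358. There the block gave 7 genes of the hair follicle list higher, and it changed no other count named here by more than 1.5 times.

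Wnt3 was not called with DESeq2 or without any one sample. Esam, Cd53, Dkk3, Exo1, E2f2, Cdkn2b, Bcl9l and Krt19 each lost their call under 1 or more alternatives other than that limit. The differences of Cdh6 and Crip1 from all 3 tissues were not called with edgeR. Genes under about 3 reads per library cannot be told from 0 at this depth.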

Other observations

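Eif2s3y, a gene of the Y chromosome, was at 125 and 93.6 CPM in bladder cells before transplantation and at 115 and 125 CPM in recovered ones. Ddx3, as the study names the identifier, was at 108 and 88.8 CPM before and 127 and 132 CPM after. In the trachea, vagina and thymus samples neither gene exceeded 0.115 CPM. The whisker samples had both, with Eif2s3y between 117 and 124 CPM and Ddx3 between 98.9 and 129 CPM. Neither gene was called, and no change after transplantation was called among the 3 HOX genes tested. Hoxb3 was at 10.9 and 11.4 CPM before and 11.3 and 11.8 CPM after.

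Markers of other cell types were few among the named genes. Of 5 immune cell markers, 3 were called lower and 1 higher. Of the 3, Cd53 was not called without sample 1 of the earlier cells (log2 fold change -0.95) or without sample 1 of the recovered cells (-1.30). Lcp1 fell from 17.2 and 14.3 CPM to 1.29 and 1.29 CPM, and Cd68, a lysosomal protein of macrophages and other cells, rose from 14.7 and 13.4 CPM to 55.1 and 52.9 CPM. The summed level of the 5 was 85.6 and 54.3 CPM before and 67.2 and 64.7 CPM after. Of 2 endothelial markers 1, Esam, was called lower, from 1.87 and 1.38 CPM to 0.905 and 0.689 CPM, and it was not called without sample 1 of the earlier cells (log2 fold change -0.80) or without either recovered sample (-1.21 and -0.83). The smooth muscle actin gene Acta2 was at 8.03 and 10.3 CPM before and 4.90 and 4.48 CPM after and was not called. No melanocyte marker could be named. Of 6 epithelial identity markers, Krt8 and Krt18 were called lower and Cdh1, Epcam, Elf3 and Esrp2 were not called.

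Genes with no name at hand were among those that changed most. ENSRNOG00000026133 was at 0.0747 and 0.259 CPM before and at 471 and 450 CPM after, with a fitted log2 fold change of 11.51 (SE 0.69, adjusted p = 8.76e-10 in limma voom). ENSRNOG00000027357 fell from 30.7 and 33.2 CPM to 0.143 and 0.172 CPM, with a log2 fold change of -7.47.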
